A study of Homo sapiens with 84 samples.

Results

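Ipatasertib, an inhibitor of the AKT kinases, was compared with DMSO in SUM-149PT, a cell line established from an inflammatory breast cancer of the triple-negative class. The readout was ATAC-seq, in which a transposase cuts accessible DNA and the cut fragments are sequenced. The comparison held 6 of the 78 libraries analysed in the series, 3 given ipatasertib and 3 given DMSO, chosen by their labels alone. It was made over 231038 of 861439 deposited peaks, those with enough counts in this line, and over 21895 of 24455 genes. A gene's value is the sum of the counts in peaks within 10 kb of its transcription start site (TSS). The ipatasertib cells received 5 uM of the drug for 24 hours in medium with 2% FBS, and the DMSO cells the solvent alone for the same time. A further 6 SUM-149PT libraries served as an independent measurement of the same drug: 3 given 5 uM tazemetostat, an inhibitor of the histone methyltransferase EZH2, and 3 given tazemetostat with ipatasertib (the combination). Tazemetostat or DMSO began on day -5 and ipatasertib on day 0, a schedule that the labels describe for MDA-MB-468 and that is taken here for SUM-149PT as well.

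AKT kinases act below phosphoinositide 3-kinase (PI3K) and growth factor receptors. They phosphorylate the FOXO transcription factors, which are then held in the cytoplasm. When AKT is blocked, FOXO proteins can enter the nucleus, where they are known to activate genes for insulin signalling, fuel use and cell cycle arrest, among them the insulin receptor INSR, its adaptor IRS2 and the pyruvate dehydrogenase kinase PDK4. Accessible chromatin marks promoters and enhancers that are bound by such factors or poised for them.

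Libraries held 16053261 to 18143933 counts in peaks with ipatasertib and 17167557 to 21459284 with DMSO. DMSO replicate 3 stood apart: it was the deepest of the 6, 9.96% of all peaks had a count of 0 in it against 15.2 to 17.4% in the others, and 23.2% of its counts lay within 1 kb of a TSS against 24.3 to 24.9%. Counts of changed peaks and genes are given with and without it, as are the calls that were lost without it. Shares by accessibility, position and motif and the comparison across lines were computed with it only. Libraries of the same group differed by less than the sampling noise of their counts (0.80 to 0.92 times the variance expected from counting). In the peaks with the most counts this ratio was 0.61 to 0.91. Ipatasertib libraries differed from DMSO libraries by 1.33 to 1.57 times the variance expected from counting. No label says that the libraries came from separate cultures, so each group is treated as 1 sample. The p-values below cover no more than counting error and compare these libraries, not populations of cultures. They can be smaller than counting error allows, because the fitted spread lay below it. Its median, the quasi-dispersion, was 0.892 for peaks and 0.74 for genes, where 1 is counting error. With it held at 1 or more, 14932 peaks and 837 genes passed, against 16109 and 1089 in the main fit. The line carried open chromatin at its defining epithelial genes: 7 luminal markers summed to 292 to 306 CPM (counts scaled to a common library total of counts in peaks, without TMM factors) with DMSO and 283 to 293 with ipatasertib, and 6 basal markers to 250 to 258 and 235 to 237. The log2 CPM values below are those of edgeR, with TMM scaling. The 5 mesenchymal markers, all measured, summed to 95.7 to 99.4 CPM with DMSO and 92.7 to 99.3 with ipatasertib. Of 5 immune markers 3 were measured, at 80.7 to 87.2 and 85.2 to 87.5 CPM in sum, and of 5 endothelial markers 4, at 36.2 to 39.2 and 31.0 to 33.8. The part of these marker differences in the results was not tested. A lower signal in every cell and fewer cells with an open site cannot be told apart in these bulk libraries.

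The promoters below belong to genes described in the results, and each lies under a peak that rose with ipatasertib. They share the direction of change. In each, 1 kind of sequence element was picked for marking, although some elements occur in several of the promoters. Each is the 250 bases before the gene's start in RefSeq (GRCh38.p14), written 5′ to 3′ on the minus strand, on which all 4 genes lie. Capitals mark CCAAT (here as its reverse complement) in PDK4 (chr7:95596517-95596766), overlapping and single GC boxes GGGCGG in INSR (chr19:7294415-7294664), the cyclic AMP element core TGACG, found on both strands, in JUND (chr19:18281623-18281872), and the TEAD motif GGAATG in ANKRD1 (chr10:90921088-90921337).
PDK4: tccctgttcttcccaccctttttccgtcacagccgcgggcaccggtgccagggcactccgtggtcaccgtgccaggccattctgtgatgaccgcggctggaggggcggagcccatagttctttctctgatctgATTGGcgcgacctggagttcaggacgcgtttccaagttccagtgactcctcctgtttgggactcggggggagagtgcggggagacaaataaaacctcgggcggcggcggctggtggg
INSR: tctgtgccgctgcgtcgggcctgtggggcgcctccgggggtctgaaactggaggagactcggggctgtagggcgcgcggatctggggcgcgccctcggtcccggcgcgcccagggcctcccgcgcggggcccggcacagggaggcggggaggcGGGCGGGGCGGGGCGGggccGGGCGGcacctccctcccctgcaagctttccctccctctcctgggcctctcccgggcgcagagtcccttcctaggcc
JUND: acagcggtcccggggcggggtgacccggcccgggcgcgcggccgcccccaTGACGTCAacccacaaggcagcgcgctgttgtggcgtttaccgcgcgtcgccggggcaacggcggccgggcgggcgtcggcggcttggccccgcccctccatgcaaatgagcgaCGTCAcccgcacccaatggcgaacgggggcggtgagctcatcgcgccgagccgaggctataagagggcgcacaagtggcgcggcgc
ANKRD1: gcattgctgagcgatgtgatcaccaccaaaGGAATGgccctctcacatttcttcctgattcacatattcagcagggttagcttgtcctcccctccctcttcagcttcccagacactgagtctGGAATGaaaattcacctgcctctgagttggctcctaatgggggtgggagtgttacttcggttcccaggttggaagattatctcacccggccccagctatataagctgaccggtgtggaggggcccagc
None of the 4 holds the FOXO motif TGTTTAC on either strand. The PDK4 promoter holds 1 CCAAT and, unmarked, 2 GC boxes and 1 match to TGACG. The INSR promoter holds 4 GC boxes. The JUND promoter holds 3 matches to TGACG and, unmarked, 5 GC boxes and 1 CCAAT. The ANKRD1 promoter holds 2 TEAD matches and, unmarked, 1 AP-1 match (TGANTCA).

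With TMM scaling more peaks rose than fell, an order that turned with libraries scaled to their totals or with a higher minimum count. At an adjusted p under 0.05 (edgeR, Benjamini-Hochberg over all peaks), 16109 of 231038 peaks differed (6.97%): 10593 rose (4.58%) and 5516 fell (2.39%). The median rise was 0.40 on the log2 scale (1.32-fold), and the median fall was to 0.567 of the DMSO level (log2 -0.82). Risen peaks had a median accessibility of 2.89 log2 CPM and fallen peaks of 0.78. Changes of at least 1 on the log2 scale were mostly falls: 1840 peaks fell by that much (0.796%) and 447 rose (0.193%). With the trend in accessibility removed, 738 fell and 811 rose by that much. The 3 ipatasertib libraries did not overlap the 3 DMSO libraries in CPM at 93.4% of risen and 96.1% of fallen peaks, against 25.2% of all peaks tested. These shares use the same values that called the peaks and are no separate evidence.

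The direction of change followed how open a peak was. Among peaks under 0 log2 CPM, 0.36% rose and 1.73% fell, and their median log2 fold change was -0.17. Between 2 and 3, 10.6% rose and 2.67% fell, with a median of 0.08. Above 4, 15.4% rose and 0.64% fell, with a median of 0.09. The excess of rises over falls depended on the scaling: 65.8% of called peaks rose with TMM scaling, 49.6% (6449 of 12992) when libraries were scaled to their totals, and 52.5% (5113 of 9748) when the trend with accessibility was itself removed. With a minimum count of 30 in place of 10, 5461 peaks rose and 6152 fell. Without DMSO replicate 3, 4649 peaks rose and 2719 fell.

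**Figure D1:**
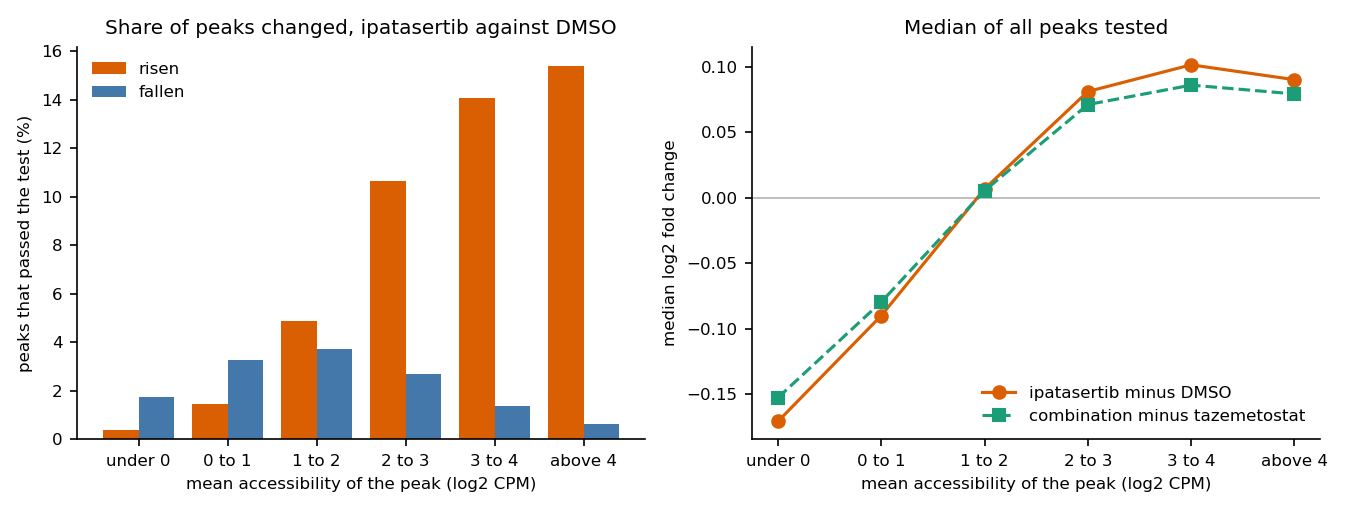
Left, percent of tested peaks that rose or fell with ipatasertib, by mean accessibility in log2 CPM. Right, median log2 fold change of all tested peaks in each class, for ipatasertib minus DMSO and for combination minus tazemetostat. The share of rises climbs from 0.36% in the weakest class to 15.4% in the strongest, and the medians of both comparisons pass from below 0 to above it.

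By position, 6.25% of promoter peaks rose and 1.18% fell, and 5' UTR peaks were alike (6.42% and 1.38%). Distal intergenic peaks rose in 4.46% and fell in 2.74% of cases. Promoters made up 12.1% of tested peaks, 16.4% of risen peaks and 5.95% of fallen peaks. Promoter peaks are strong, however, and in each class above 2 log2 CPM they rose less often than distal intergenic ones: between 3 and 4 log2 CPM, 8.82% of promoter peaks rose against 16.9%. The promoter share of all counts was 24.7% with ipatasertib and 24.0% with DMSO, a difference of 0.71 percentage points (exact permutation test, two-sided, p = 0.3, where 3 against 3 libraries cannot go below 0.1).

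Promoters under risen peaks were rich in G and C. Of 35116 RefSeq promoter windows (250 bases before to 50 after the start), 21469 lay under a tested peak, with 150 bases or more shared, 2108 under a risen peak and 117 under a fallen one. Median GC content was 58.7% over all windows, 64.7% under tested peaks, 71% under risen peaks and 51.7% under fallen peaks. The GC box GGGCGG, counted on both strands, was in 45.0% of all windows, 63.5% of tested, 79.4% of risen and 29.1% of fallen ones. The FOXO motif TGTTTAC was in 3.42% of all windows, 2.75% of tested, 1.80% of risen and 8.55% of fallen ones (10 of 117). The ETS motif CCGGAAG was in 14.8% of tested, 12.3% of risen and 4.27% of fallen windows, and CCAAT in 33.2, 38.3 and 34.2%. TEAD (GGAATG) and AP-1 (TGANTCA) motifs were in 12.2% and 7.10% of tested windows, and in 11.7% and 4.89% of risen ones. The E-box CACGTG was in 8.76% of tested and 8.16% of risen windows, and TGACG in 30.1% and 28.4%. These shares describe letters in windows and were not tested.

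Among well-covered peaks (mean of at least 2 log2 CPM, libraries not overlapping), the largest rise lay at the PDK4 locus. This peak, at chr7:95599037-95599702 (hg38) in an intron of the antisense transcript PDK4-AS1, begins 2521 bases upstream of the start of PDK4, which limits the entry of pyruvate into the mitochondrial citric acid cycle. It measured 1.56, 1.75 and 2.05 CPM in the DMSO libraries and 5.51, 4.50 and 4.86 with ipatasertib. The groups do not overlap by the rule that chose the peak, and the log2 fold change was 1.5 ± 0.14 (SE, adjusted p = 3.73e-16). On tazemetostat the same peak rose by 1.17 ± 0.11, from 2.63, 3.66 and 3.23 CPM to 6.57, 7.58 and 6.94. The next largest rise, at chr2:40032573-40033521 in an intron of SLC8A1-AS1, 63.7 kb from the sodium-calcium exchanger gene SLC8A1, went from 2.66, 2.91 and 3.22 CPM to 6.45, 7.07 and 6.48 (log2 1.21 ± 0.11, adjusted p = 1.25e-15). The other rises of the top 6 were an intergenic peak assigned to LINC02720 (log2 1.07), an intron peak of MKLN1 (1.04), a peak assigned to MIR297 (1.03), and an intron peak of SAMD4A (0.98). HMCN1 held the largest exon rise (0.96, exon 98 of 107) and LINC02053 the largest promoter rise (0.92).

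The 6 largest falls among well-covered peaks lay outside promoters. A peak 9.43 kb past the end of GATA3, the luminal lineage factor, at chr10:8084630-8085716 and assigned to GATA3-AS1, measured 5.04, 5.83 and 5.69 CPM with DMSO and 2.70, 2.10 and 2.43 with ipatasertib (log2 -1.15 ± 0.13, adjusted p = 2.18e-11). The groups were far apart at this site, while none of the 15 tested peaks assigned to GATA3 itself passed the test and its sum differed by -0.02 (adjusted p = 0.91). A peak assigned to LINC01527 at chr1:152932164-152933741 lies among the genes of the epidermal differentiation complex, 20.3 kb from involucrin (IVL) and 13.5 kb from SPRR5, both of which encode proteins of the cornified cell envelope. It measured 4.52, 3.67 and 4.43 CPM with DMSO and 1.98, 1.68 and 1.93 with ipatasertib (log2 -1.14 ± 0.14). A peak 39.8 kb from the integrin gene ITGB1 fell by 1.17 on the log2 scale, and a peak in exon 4 of 4 of the cytokine gene TNFSF15 by 1.13. The deepest falls of this set were in an intron of PPM1L, a protein phosphatase (log2 -1.26 ± 0.11), and in LOC105374591, 6.26 kb from the forkhead gene FOXN2 (-1.24 ± 0.10, from 8.51, 8.74 and 8.62 CPM to 3.31, 3.30 and 4.05). The largest promoter fall was at LOC102724608 (-0.73 ± 0.12). All 15 of these named peaks passed the test with any 1 library left out, with DESeq2 and under every other alternative run, and all 15 changed in the same direction on tazemetostat with an adjusted p under 0.05. The mean accessibility that helped to choose them took in the tazemetostat and combination libraries. The PDK4-AS1 peak averaged 1.79 CPM with DMSO, 4.96 with ipatasertib and 7.03 with the combination. Its rise on tazemetostat is thus not fully separate from the choice.

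**Figure D2:**
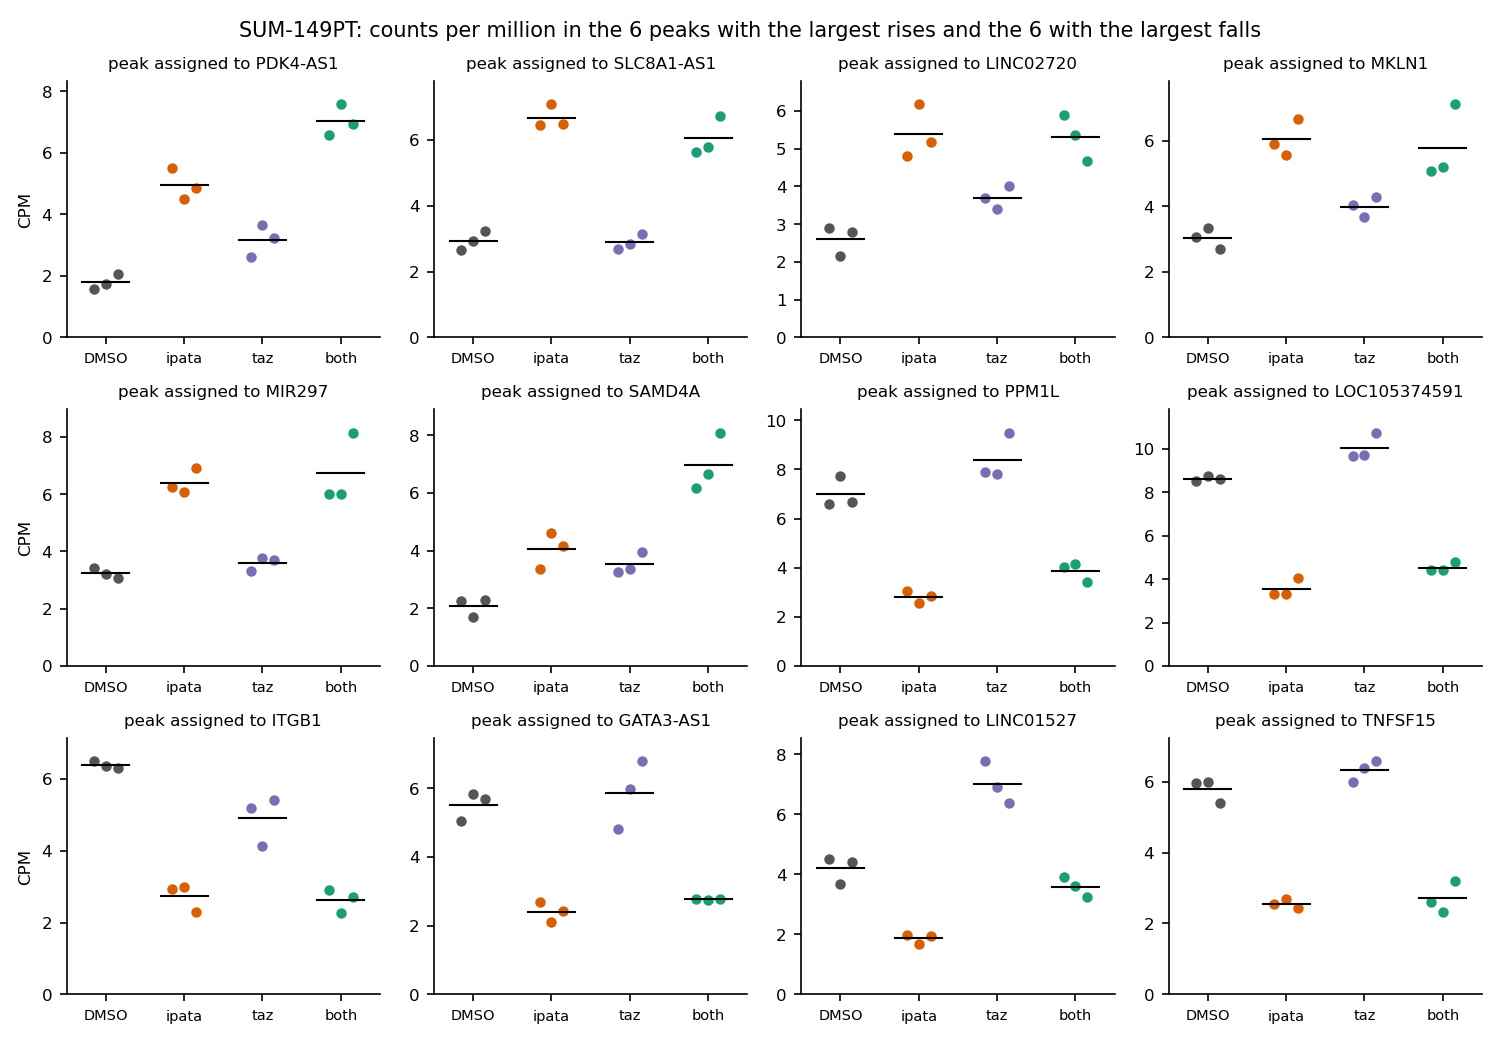
Accessibility in CPM of the 6 peaks with the largest rises and the 6 with the largest falls among well-covered peaks. Each point is 1 library and each line the mean of 3, for DMSO, ipatasertib, tazemetostat and the combination. The ipatasertib and DMSO points do not overlap in any panel because the peaks were chosen so. The combination points moved from the tazemetostat points in the same direction and did not overlap them. Those libraries had no part in the rule on overlap. They did enter the mean accessibility that defines well-covered peaks, so they are not fully separate from the choice.

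The drug effect was seen again in libraries that the first comparison did not use. Between combination and tazemetostat, 15690 peaks differed (6.79%), 9216 of them risen (3.99%) and 6474 fallen (2.8%). Of the 10593 peaks that rose with ipatasertib alone, 98.1% had a fold change above 0 on tazemetostat, with a median log2 value of 0.27, against 49.1% of all peaks tested. Of the 5516 that fell, 93.7% were below 0, with a median of -0.45, against 50.9%. These backgrounds hold all peaks and are not matched for accessibility. On tazemetostat too the median log2 fold change of all peaks varied with it, from -0.15 under 0 log2 CPM to 0.08 above 4. The part of this trend in the shared signs was not tested. Peaks called in both comparisons numbered 4588 risen, which is 43.3% of the ipatasertib list and 49.8% of the other, and 1828 fallen, 33.1% and 28.2%. None was called in opposite directions. Of all genes 885 differed in that comparison (4.04%), 354 risen (1.62%) and 531 fallen (2.43%). Among genes called with ipatasertib alone, 96.5% of risen genes and 93.7% of fallen genes kept their sign on tazemetostat, and 142 and 227 were called in both. With any 1 of the 6 ipatasertib and DMSO libraries left out, 98.2 to 98.6% of risen and 93.9 to 95.4% of fallen peaks had the same sign on tazemetostat.

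The test of whether the response differs with and without tazemetostat called 0 peaks and 0 genes with edgeR, whose smallest adjusted p was 0.696 and 0.182. At an unadjusted p under 0.05 it held 10343 peaks (4.48%) and 847 genes (3.87%). DESeq2 also called 0 of each, with 2446 peaks and 222 genes at an unadjusted p under 0.05. The medians on tazemetostat are smaller than those without it, but the peaks were chosen on the latter, so the sizes of the 2 medians are not compared.

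**Figure D3:**
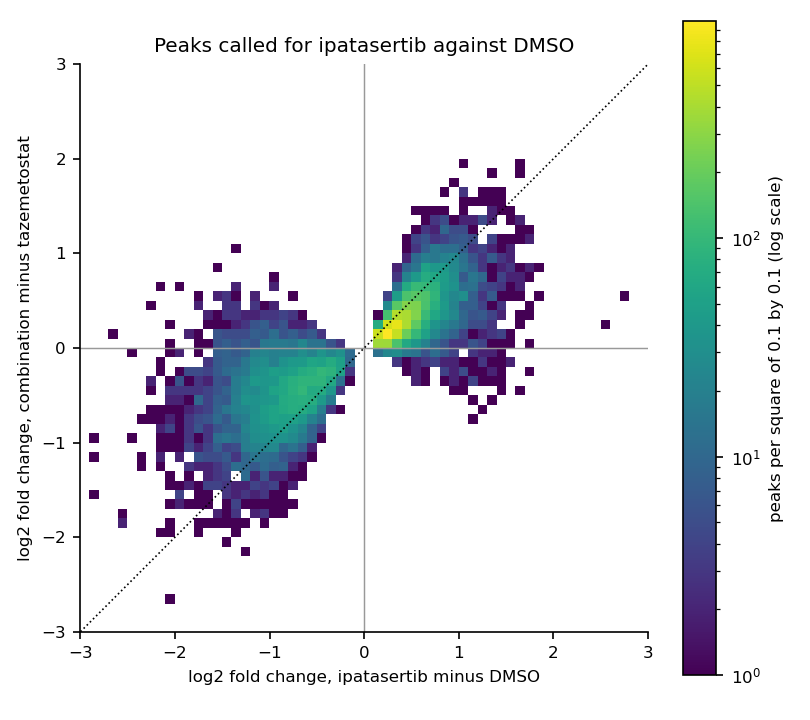
Number of peaks per square of 0.1 by 0.1 log2 units for 16104 of the 16109 peaks called between ipatasertib and DMSO, with 5 outside the axes. The horizontal axis is the log2 fold change that chose the peaks and the vertical axis the fold change between combination and tazemetostat, measured in 6 other libraries. Of the 10593 risen peaks 10389 lie above 0 on the vertical axis, and of the 5516 fallen peaks 5171 lie below it.

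At the level of gene sums, 1089 of 21895 genes differed (4.97%): 454 rose (2.07%) and 635 fell (2.9%). Counts in the gene lists below are to be read beside these shares. Changes were small, with a median log2 fold of 0.23 for risen and -0.37 for fallen genes, and the 27 genes (0.123%) that changed by at least 1 all fell. With the trend in accessibility removed, 7 genes rose and 10 fell by that much, and without DMSO replicate 3 the counts were 5 and 18. Libraries did not overlap at 98.9% of risen and 94.5% of fallen genes, against 24.8% of all genes, again from the values that called the genes. Without DMSO replicate 3, 313 genes rose and 317 fell. DESeq2 called 179 genes, 62 risen and 117 fallen.

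Few genes of insulin and PI3K signalling passed the test. Of 32 measured FOXO target genes 1 rose and none fell, where 2.07% of all genes rose and 2.9% fell. The median log2 fold was 0.02, against -0.003 over all genes. At an unadjusted edgeR p under 0.05 the list held 10 genes, where 4020 of all 21895 genes were under that value. The gene that rose was INSR, the insulin receptor. It measured 8.40, 7.22 and 7.13 CPM with DMSO and 9.70, 10.4 and 8.78 with ipatasertib (log2 0.34 ± 0.09, adjusted p = 0.016), with all ipatasertib libraries above all DMSO libraries. The call was lost without ipatasertib replicate 1 or 2 or DMSO replicate 2 or 3 (adjusted p up to 0.14) and with DESeq2 (0.17). Its promoter peak at chr19:7293291-7295554, which contains the printed GC boxes, rose by 0.40 ± 0.08 (adjusted p = 0.0022) and was lost only without DMSO replicate 3 among the 6 libraries left out in turn (0.077). IRS2, the insulin receptor substrate, gave a gene sum of -0.21 ± 0.08 that did not pass (adjusted p = 0.16), as did the receptor ERBB3 (0.02) and the glucose uptake inhibitor TXNIP (0.04).

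Promoter peaks of the same list were also read one by one. Of 35 listed genes 30 were in the RefSeq promoter table, some with several windows, and 26 had a window under a tested peak. A window lay under a risen peak in 6 of these genes and under a fallen peak in 0. Over all 21469 windows under a tested peak, 2108 lay under a risen and 117 under a fallen one. That background counts windows rather than genes, and genes with several windows have more chances. Whether the list departs from it was not tested. The 6, named after their values were seen, were INSR, PPARGC1A, which encodes a coactivator of mitochondrial genes (0.67, adjusted p = 0.041), PDK4 (0.29, 0.023), CAT, which encodes catalase (0.18, 0.015), the IGF1 receptor gene IGF1R (0.17, 0.0085), and IRS2 (0.12, 0.036). The FOXO motif TGTTTAC was in a window of 4 of the 30 genes (TXNIP, TRIB2, PIK3IP1 and BCL2L11), and none of those genes had a window under a called peak. Over all 526 peaks assigned to the list, 3.80% rose and 2.47% fell, against 4.58% and 2.39% of all peaks tested.

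The PDK4 locus changed over a wider stretch than 1 peak. These peaks were looked up after their values were seen. Of 5 tested PDK4 peaks 2 rose, the promoter at chr7:95595744-95597165 (8.57, 9.84 and 8.95 CPM with DMSO, 10.4, 11 and 11.2 with ipatasertib, log2 0.29 ± 0.08) and a peak 40243 bases upstream of the start (0.72 ± 0.13, adjusted p = 1.64e-04). Of 7 PDK4-AS1 peaks 4 rose, by 0.23 to 1.5, and none of the 12 fell. The upstream peak and the PDK4-AS1 peaks at 95599037 and 95576958 passed with each library left out. The promoter call was lost without ipatasertib replicate 2 or 3 or DMSO replicate 1 or 3 (adjusted p up to 0.16), and the other PDK4-AS1 peaks were lost without DMSO replicate 3 (0.069 and 0.088), 1 of them also without ipatasertib replicate 2. The PDK4 gene sum, 0.24 ± 0.08, did not pass (adjusted p = 0.098).

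Among 28 members of the PI3K-AKT-mTOR pathway 1 rose and none fell, with a median of 0.02, where 2.07% of all genes rose and 2.9% fell. At an unadjusted edgeR p under 0.05 it held 7 genes, where 4020 of all 21895 genes were under that value. PIK3R1, the regulatory subunit of PI3K, went from 33.9, 31.2 and 32.7 CPM to 36.6, 37.5 and 36.1 (log2 0.16 ± 0.04, adjusted p = 0.026). It was lost without ipatasertib replicate 1 or 2 or DMSO replicate 2 (up to 0.17) and with DESeq2 (0.22). Genes of the kinases that the drug binds did not pass: AKT1 differed by 0.12 ± 0.05 (adjusted p = 0.27) and AKT2 by 0.004 ± 0.05 (0.99), a sign that turned under 8 of the alternatives. The factors FOXO1 (0.08 ± 0.04) and FOXO3 (0.07 ± 0.03) did not pass either. Peaks of the pathway rose in 7.28% and fell in 1.64% of 426 cases, against 4.58% and 2.39% of all peaks. Of 32 receptor kinases, ligands and adaptors INSR alone passed.

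Genes of the YAP/TEAD pathway, which reads cell contact and tension, had a median of 0.06, which was above 0 under every setting run (0.01 to 0.08). With a window of 1 kb it was 0.01, below the 0.04 of the PI3K-AKT-mTOR pathway and the 0.02 of receptor kinases. Of 23 measured genes 2 rose and none fell, where 2.07% of all genes rose, and with DESeq2 1 rose. At an unadjusted edgeR p under 0.05 the list held 9 genes, where 4020 of all 21895 genes were under that value. Of their 598 peaks 53 rose (8.86%) and 12 fell (2.01%), against 4.58% and 2.39% of all peaks. ANKRD1, a muscle ankyrin-repeat protein and a classic YAP target, measured 7.18, 6.82 and 6.11 CPM with DMSO and 8.82, 8.63 and 10.5 with ipatasertib (log2 0.46 ± 0.09, adjusted p = 4.85e-04). The groups did not overlap, and the call held with each library left out (adjusted p up to 0.035) and with DESeq2 (0.030). On tazemetostat, however, neither ANKRD1 nor any other gene of this list passed. The ANKRD1 promoter peak, which holds the printed TEAD matches, rose by 0.67 ± 0.10, from 4.87, 4.78 and 3.82 CPM to 6.78, 6.41 and 7.41. On tazemetostat that peak rose by 0.34 ± 0.09 (adjusted p = 0.034). The difference between the responses had an unadjusted edgeR p of 0.040 and did not pass when adjusted. NT5E, which encodes the adenosine-forming enzyme CD73, rose by 0.21 ± 0.04 (26.8 to 27.2 CPM with DMSO, 29.6 to 33.0 with ipatasertib) and was lost without ipatasertib replicate 1 (adjusted p = 0.077) and with DESeq2 (0.083). The matrix genes CCN1 (-0.01) and CCN2 (0.11) did not pass as sums, although 2 peaks of each rose.

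AP-1 and ERK feedback genes went both ways: 2 of 29 rose and 2 fell, where 2.07% of all genes rose and 2.9% fell. JUND, the AP-1 subunit that is not an immediate early gene, measured 60.1, 60.4 and 60.1 CPM with DMSO and 67.1, 67.9 and 66.1 with ipatasertib (log2 0.14 ± 0.03, adjusted p = 0.0039). The spread within each group was far smaller than the gap, and the call held with each library left out (up to 0.030), though not with DESeq2 (0.095). The promoter peak, with the printed TGACG matches, was the 1 of 4 JUND peaks to rise (45.1, 45.6 and 44.9 CPM against 52.6, 53.3 and 51.8, log2 0.26 ± 0.04, adjusted p = 1.95e-07). FOS, the immediate early subunit, rose by 0.13 ± 0.03. It was lost without ipatasertib replicate 2 (0.064) and with a window of 1 kb (0.06, adjusted p = 0.56). Of 15 FOS peaks 2 rose and 1 fell. The exon 4 peak rose by 0.31, with overlapping groups, but had 0.01 on tazemetostat (adjusted p = 0.95). The difference between these responses had an unadjusted edgeR p of 4.85e-05 and an adjusted p of 0.70. DUSP4, a phosphatase that switches off ERK, fell by 0.15 ± 0.03 from 68.6 to 71.7 CPM to 61.9 to 65.5, and MAFK by 0.10 ± 0.03, a call that was lost without ipatasertib replicate 2 or 3 or any DMSO library (up to 0.19). DESeq2 called neither FOS, DUSP4 nor MAFK (0.094, 0.053 and 0.29).

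LIF and OSM, cytokines whose gp130 receptors signal through JAK1 to STAT3, fell, and JAK1 rose. LIF, the leukaemia inhibitory factor, measured 8.05, 8.16 and 10.1 CPM with DMSO and 6.12, 4.86 and 4.55 with ipatasertib (log2 -0.78 ± 0.11, adjusted p = 2.61e-07). The groups did not overlap, the call held with each library left out and with DESeq2 (3.46e-04), and on tazemetostat LIF fell by 1.07 ± 0.13. Of 4 LIF peaks 3 fell, the deepest 2776 bases upstream of the start at chr22:30249220-30249535 (-1.26 ± 0.22). OSM, oncostatin M, fell by 0.27 ± 0.08 (11.2 to 11.8 CPM to 8.97 to 10.4), but passed with only 1 of the 6 libraries left out (adjusted p up to 0.21). JAK1 rose by 0.25 ± 0.05, from 22.8, 23.7 and 24.8 CPM to 27.9, 28.7 and 29.5 (adjusted p = 5.48e-04), held with each library left out and with DESeq2 (0.030), and its promoter peak rose by 0.33 ± 0.05. STAT3 itself differed by 0.02 ± 0.05 (0.92). Of 29 genes of mammary involution and gp130-STAT3 signalling, 2 rose (JAK1 and PIK3R1) and 3 fell (LIF, OSM and the NF-kB cofactor gene BCL3, the last at -0.13 and named after its values were seen), with a median of 0.01.

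Inflammatory genes showed 3 falls and no rise among 26, with a median of -0.04, where 2.9% of all genes fell and 2.07% rose. With a window of 1 kb none of 20 passed. The interleukin 1 antagonist gene IL1RN fell by 0.19 ± 0.04, from 38.9, 42.6 and 40.1 CPM to 36.1, 36.3 and 35.1 (adjusted p = 0.0024, up to 0.042 with a library left out). S100A8, a subunit of calprotectin, fell by 0.23 ± 0.05 and was lost without ipatasertib replicate 3 (0.12). IL1A fell by 0.26 ± 0.07 and was lost with any 1 of the 6 libraries left out (0.055 to 0.26). DESeq2 called none of these 3 (0.071 to 0.31). The chemokine CCL7, among the largest falls of all genes, went from 2.26, 2.21 and 1.91 CPM to 0.882, 1.14 and 0.997 (log2 -1.08 ± 0.23, adjusted p = 9.44e-04). It rests on a single tested peak. Of 16 interferon and antigen presentation genes 1 fell, OAS1 (-0.47 ± 0.14), lost without ipatasertib replicate 2 or 3 or DMSO replicate 1 or 3 (up to 0.29).

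Of 28 basal markers 3 fell and none rose, where 2.9% of all genes fell and 2.07% rose. The count was the same with each library left out, and the median was -0.03. With a window of 1 kb none of 27 passed: KRT17 had -0.15 (adjusted p = 0.32), KRT5 -0.11 (0.60) and DSG3 -0.17 (0.42). KRT17, a keratin of basal and injured epithelium, measured 46.9, 50.6 and 46.1 CPM with DMSO and 37.3, 37.6 and 36.9 with ipatasertib (log2 -0.37 ± 0.04, adjusted p = 6.19e-13), and on tazemetostat it fell by 0.51 ± 0.04. The basal keratin KRT5 went from 63.5, 65.1 and 64.5 CPM to 58.4, 58.6 and 58.5 (-0.15 ± 0.03, adjusted p = 0.0019), and the desmosomal cadherin DSG3 from 26.5 to 27.1 CPM to 22.2 to 22.9 (-0.26 ± 0.05). In all 3 the groups were well separated. All held with each library left out, KRT5 with an adjusted p up to 0.033 and missing in DESeq2 (0.066). The KRT5 and KRT17 falls lay inside the genes: both fallen KRT5 peaks were in exon 9 of 9 (-1.28 and -1.30), and the strongest fallen KRT17 peak in exon 8 of 8 (23.3, 24.6 and 22.8 CPM to 17.0, 17.0 and 16.8). KRT8, a luminal keratin, differed by 0.14 ± 0.06 (0.24).

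Of 29 luminal markers 3 fell and none rose, again with each library left out, where 2.9% of all genes fell and 2.07% rose. With a window of 1 kb none of 24 passed: ELF3 had -0.01 (adjusted p = 0.97), CLDN4 -0.12 (0.063) and CDH1 -0.13 (0.16). ELF3, an epithelial ETS factor, measured 58.0, 58.7 and 55.1 CPM with DMSO and 47.6, 45.2 and 48.1 with ipatasertib (log2 -0.30 ± 0.03, adjusted p = 1.76e-10; -0.31 on tazemetostat). Its 3 fallen peaks, of 6 tested, were in its last exons. CLDN4, a tight junction claudin, fell by 0.14 ± 0.02 (130 to 141 CPM to 120 to 128), and CDH1, which encodes E-cadherin, by 0.14 ± 0.03 (96.0, 96.3 and 90.1 CPM to 84.1, 87.9 and 86.2). Of 34 CDH1 peaks 11 fell and none rose, by 0.49 to 1.37, 8 of them in intron 2 and 3 in exons. They were weak peaks (at most 1.80 log2 CPM), and 3 of the 11 passed with each library left out, those starting at 68764583, 68782197 and 68823067. The others were each lost at least once (adjusted p up to 0.22). All 11 lay outside the window of the sum, at 12297 to 85775 bases from the start. On tazemetostat all 11 had a negative log2 fold change. Of the 3 peaks named above, those at 68764583 (-1.73, adjusted p = 5.51e-05) and 68782197 (-1.38, 2.67e-04) passed there, and that at 68823067 (-0.25, 0.76) did not. Of the others some passed there and some did not. The CDH1 sum, which holds none of these peaks, differed by -0.06 on tazemetostat and did not pass (adjusted p = 0.25). For the sum the difference between the responses was not significant (adjusted p = 1). The mesenchymal list was mixed, with 3 of 26 risen and 2 fallen, where 2.07% of all genes rose and 2.9% fell. The collagen gene COL6A3 rose by 0.30 ± 0.04, from 28.6, 29.2 and 29.2 CPM to 36.3, 36.3 and 35.6, and held with each library left out. NT5E, above, and FAP (0.17, named after its values were seen) were the other rises. FN1, fibronectin, fell by 0.18 ± 0.04 and was lost without ipatasertib replicate 2 or 3 or DMSO replicate 3 (up to 0.16). Over all distances 8 of its 23 peaks fell and none rose. Of these 8, the peak 9989 bases from the start lay in the window of the sum. The others lay outside it, at 37810 to 71288 bases. COL3A1 fell by 0.48 ± 0.14 and was lost without ipatasertib replicate 2 or 3 or DMSO replicate 1 or 3 (up to 0.24). VIM differed by -0.06 ± 0.03 (0.44).

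**Figure D4:**
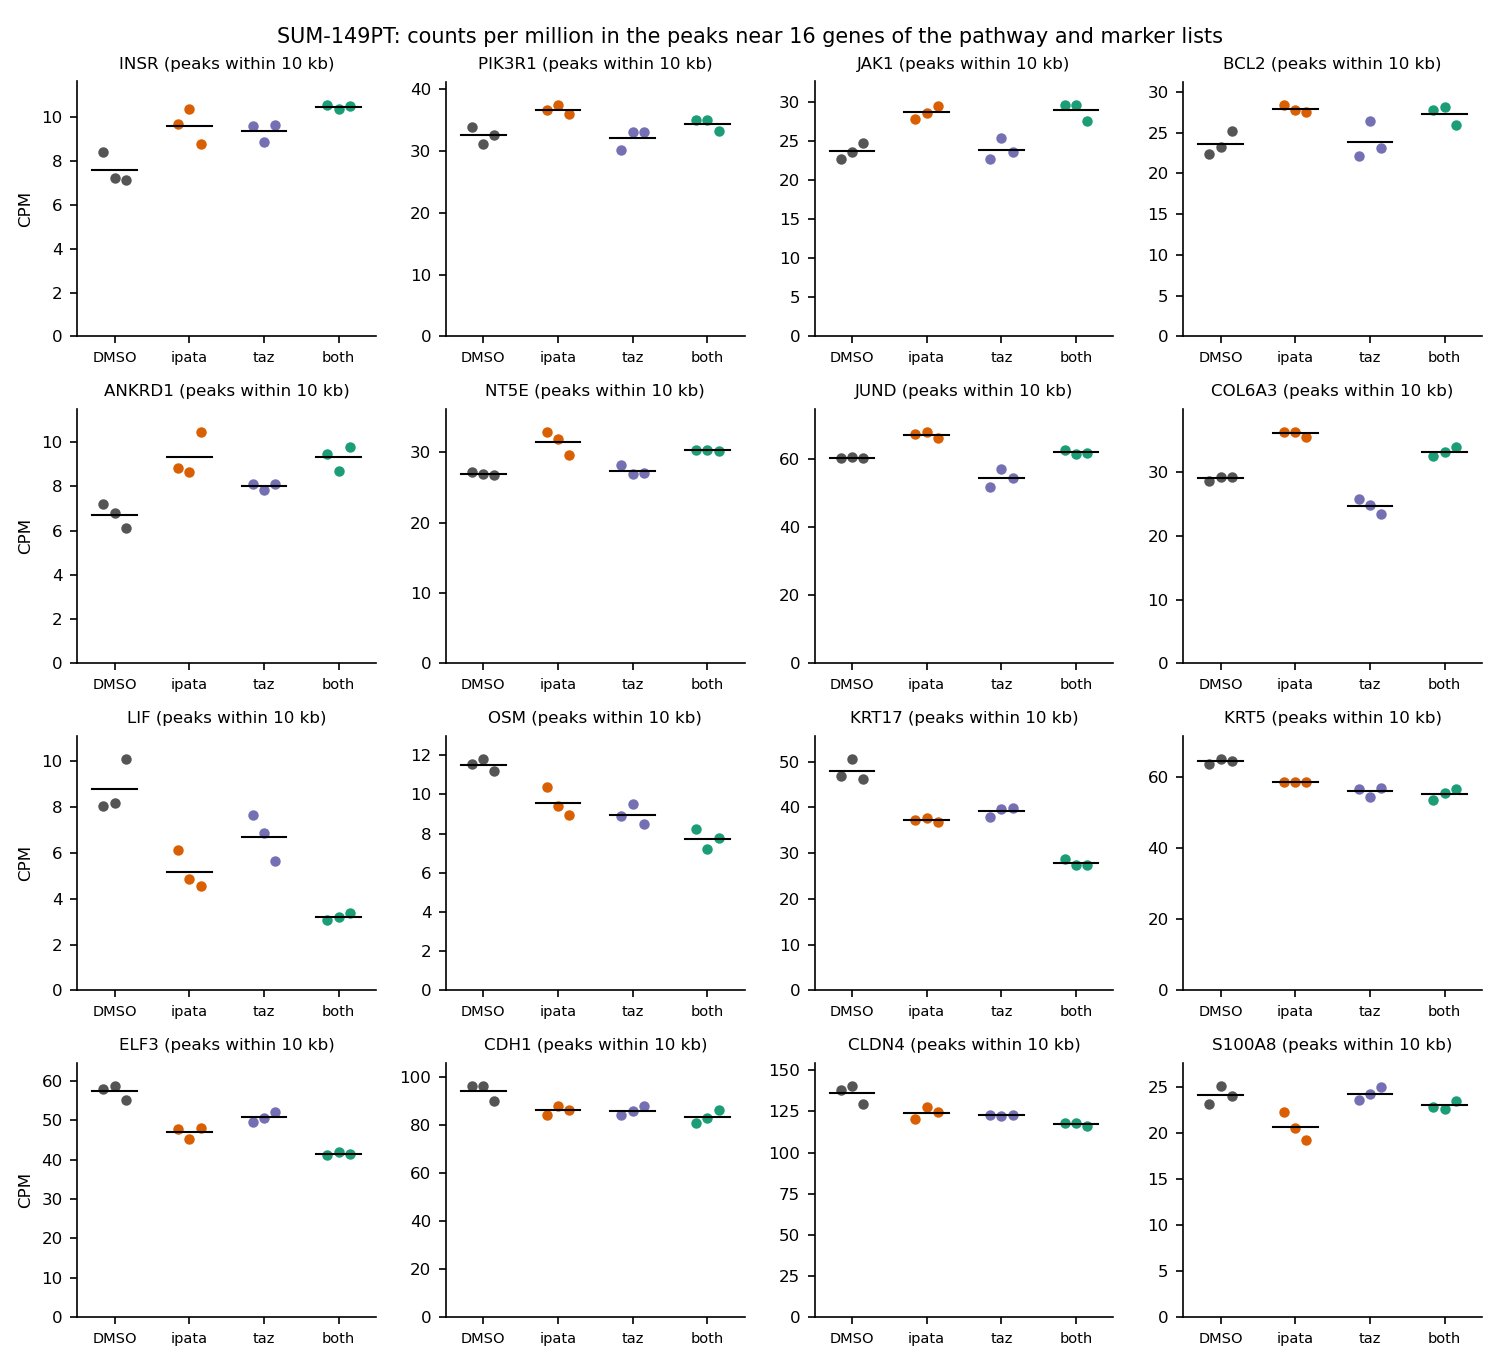
Gene sums in CPM (counts in peaks within 10 kb of the TSS) for 16 genes described in the text. Each point is 1 library and each line the mean of 3, for DMSO, ipatasertib, tazemetostat and the combination. JAK1, ANKRD1, COL6A3 and JUND lie higher with ipatasertib in all 3 libraries, and LIF, KRT17, KRT5 and ELF3 lower.

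Of 15 BCL2 family genes 2 rose and of 33 cell cycle genes 1, where 2.07% of all genes rose. The medians were 0.03 and 0.01, and DESeq2 called none of the 3 (0.11, 0.16 and 0.24). BCL2, the antiapoptotic protein, rose by 0.22 ± 0.05, from 22.4, 23.2 and 25.2 CPM to 28.4, 27.8 and 27.6, and was lost without DMSO replicate 1 (adjusted p = 0.064). Its promoter peak rose by 0.25 ± 0.06 and passed with each library left out, but not with DESeq2 (0.071) or with the trend in accessibility removed (0.16, adjusted p = 0.15). BAD, a BH3-only protein that AKT phosphorylates, rose by 0.13 ± 0.03, lost without ipatasertib replicate 2 (0.11). No other BCL2 family gene passed, among them BMF (0.04 ± 0.02). Cyclin E1 (CCNE1) was the cell cycle gene that passed, at 0.20 ± 0.06, lost without ipatasertib replicate 1 or 3 or DMSO replicate 1 or 2 (up to 0.23). None of 27 sterol and fatty acid, 22 glycolysis, 19 amino acid and stress response, 25 lysosome and autophagy, 13 housekeeping and 13 immune genes passed, with edgeR or with DESeq2. At an unadjusted edgeR p under 0.05 these lists held 4, 4, 4, 3, 3 and 2 genes, where 4020 of all 21895 genes were under that value. Their largest differences were SQLE -0.35, HK1 -0.58, DDIT3 -0.33, GPNMB -0.26, GAPDH -0.38 and CD3D -0.59. Of 56 Polycomb developmental targets SOX17 rose (0.31 ± 0.07) and LHX3 (-0.26 ± 0.07) and ALX4 (-0.10 ± 0.02) fell. SOX17 was lost without ipatasertib replicate 1 or DMSO replicate 2 (up to 0.12), ALX4 without ipatasertib replicate 3 or DMSO replicate 1 (up to 0.12), and LHX3, whose groups overlapped, without 4 of the 6 libraries, ipatasertib replicates 2 and 3 and DMSO replicates 1 and 3 (up to 0.36). Of 13 endothelial markers CDH5 fell, by 0.28 ± 0.05 (26.7 to 28.2 CPM to 20.7 to 24.0), and passed with each library left out.

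The largest gene changes were taken among protein-coding genes. The 12 largest rises ran from 0.59 to 0.85 and the 12 largest falls from -1.19 to -0.78. RPL4, a ribosomal protein gene, rose from 2.61, 1.81 and 1.40 CPM to 3.75, 2.94 and 3.68 (log2 0.85 ± 0.18) through 1 of its 2 peaks. It passed with each library left out, as did MAGEB17 (0.73), OARD1, which encodes an ADP-ribose hydrolase (0.65), F13A1, a subunit of coagulation factor XIII (0.65), and APCS, serum amyloid P (0.62). CLDN16, a renal claudin, fell from 2.26, 2.16 and 1.82 CPM to 0.77, 0.90 and 1.06 (log2 -1.19 ± 0.24), although with a window of 50 kb its sum did not pass (adjusted p = 0.84). The peripheral myelin protein gene PMP2 fell from 6.72, 6.12 and 6.15 CPM to 3.47, 3.36 and 3.49 (-0.89 ± 0.13, adjusted p = 2.61e-07), and on tazemetostat by 1.20. ACTL7A fell by 0.88 ± 0.14, and these 3 with CCL7 and LIF passed with each library left out. The other 7 rises and 7 falls were each lost at least once, with an adjusted p of up to 0.054 (KIAA2012) to 0.28 (GPR50): SLC37A1 and RAB2B with any 1 library left out, ANGPTL1 and KCNA3 with 5 of the 6, ARPP21, TBC1D30, TKTL1 and OSBPL10 with 4, FAM9A, the aromatase gene CYP19A1 and GPR50 with 3, and MLF1, KIAA2012 and SERPINB10 with 2. MLF1 rose by 0.70 but had -0.16 on tazemetostat, and GPR50 fell by 0.96 with 0.14 there, while the test of the difference called neither (adjusted p = 0.49 for MLF1 and 1 for GPR50).

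Some genes held clusters of changed peaks, found by ranking genes after the values were seen. PDE4D, which encodes a cyclic AMP phosphodiesterase, had 14 of 96 peaks fallen and 1 risen, TMEM45A 11 of 28 fallen and 1 risen, and SERPINB2, the urokinase inhibitor PAI-2, 10 of 32 fallen and 1 risen. The fallen SERPINB2 peak with the smallest adjusted p, at chr18:63903969-63904659 in intron 5 of 7, went from 4.11, 6.35 and 6.01 CPM to 1.82, 2.16 and 2.12 (log2 -1.41 ± 0.14, adjusted p = 1.25e-15). On the other side, HIVEP3 had 11 of 82 peaks risen and CNIH3 10 of 61, with none fallen. Genes with many peaks have more chances to appear in such a ranking.

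The same drug was compared across lines in a fit of 48 libraries, 12 from each of SUM-149PT, MDA-MB-468, MDA-MB-231 and SUM-159PT, over 23406 genes and 414714 peaks. In that fit 1165 genes passed in SUM-149PT (4.98%), 1656 in MDA-MB-468 (7.08%), 47 in MDA-MB-231 (0.201%) and 147 in SUM-159PT (0.628%). The response of SUM-149PT differed from that of MDA-MB-468 at 480 genes (2.05%), from MDA-MB-231 at 99 (0.423%) and from SUM-159PT at 163 (0.696%). Among peaks it differed at 1955 (0.471%), 444 (0.107%) and 1038 (0.25%) in the same order. These counts depend on precision as well and do not rank the lines by likeness. At the GATA3-AS1 peak the difference had a standard error of 0.19 against MDA-MB-468 and 0.43 against MDA-MB-231. Against MDA-MB-231 its value of -1.375 did not pass (adjusted p = 0.29). At the SLC8A1-AS1 peak the order was the other way, 0.56 and 0.26. Of the 454 genes that rose in SUM-149PT, 81.9% were above 0 in MDA-MB-468, 63.9% in MDA-MB-231 and 59.5% in SUM-159PT, where all genes gave 51.4, 48.7 and 50.3%. Of the 635 that fell, 68.2, 57.5 and 67.7% were below 0.

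The FOS gene sum went in opposite directions: it rose by 0.13 in SUM-149PT and fell by 0.18 in MDA-MB-468 (adjusted p = 2.26e-09) and 0.13 in SUM-159PT (0.012). The difference passed against all 3 lines (0.32 ± 0.04, 0.22 ± 0.04 and 0.26 ± 0.04). In SUM-149PT, however, the rise at its exon 4 peak was not seen on tazemetostat. JUND also differed from all 3 (0.17 to 0.25). The response of ELF3 was lower in SUM-149PT than in MDA-MB-468, MDA-MB-231 and SUM-159PT (differences -0.23, -0.34 and -0.35), where its own values of -0.06, 0.05 and 0.06 did not pass. KRT17 fell in MDA-MB-468 as well (-0.11, adjusted p = 0.0048) and had -0.08 in SUM-159PT, and KRT5 had 0.04 and 0.11 in these lines without passing. The responses of both keratins were lower in SUM-149PT than in those lines. LIF fell in MDA-MB-468 as well (-0.16 ± 0.05, adjusted p = 0.042), by less than in SUM-149PT (difference -0.61 ± 0.11). JAK1 rose in SUM-149PT (0.26), MDA-MB-468 (0.16, adjusted p = 0.0024) and SUM-159PT (0.23, 0.021), and OSM fell in SUM-159PT (-0.34, 0.0014). INSR had 0.28 ± 0.07 in SUM-159PT (0.097) and its differences between lines did not pass. The PDK4-AS1 peak starting at 95599037 rose in MDA-MB-468 too, by 0.99 ± 0.12 (adjusted p = 2.32e-10), as did the SAMD4A peak (1.12 ± 0.12) and the MKLN1 peak (1.02 ± 0.16). None of these 3 differed from SUM-149PT in that line. The falls beside GATA3 and in the epidermal differentiation complex had 0.16 ± 0.13 and 0.09 ± 0.19 in MDA-MB-468, and both differences passed (-1.29 ± 0.19 and -1.20 ± 0.25).

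**Figure D5:**
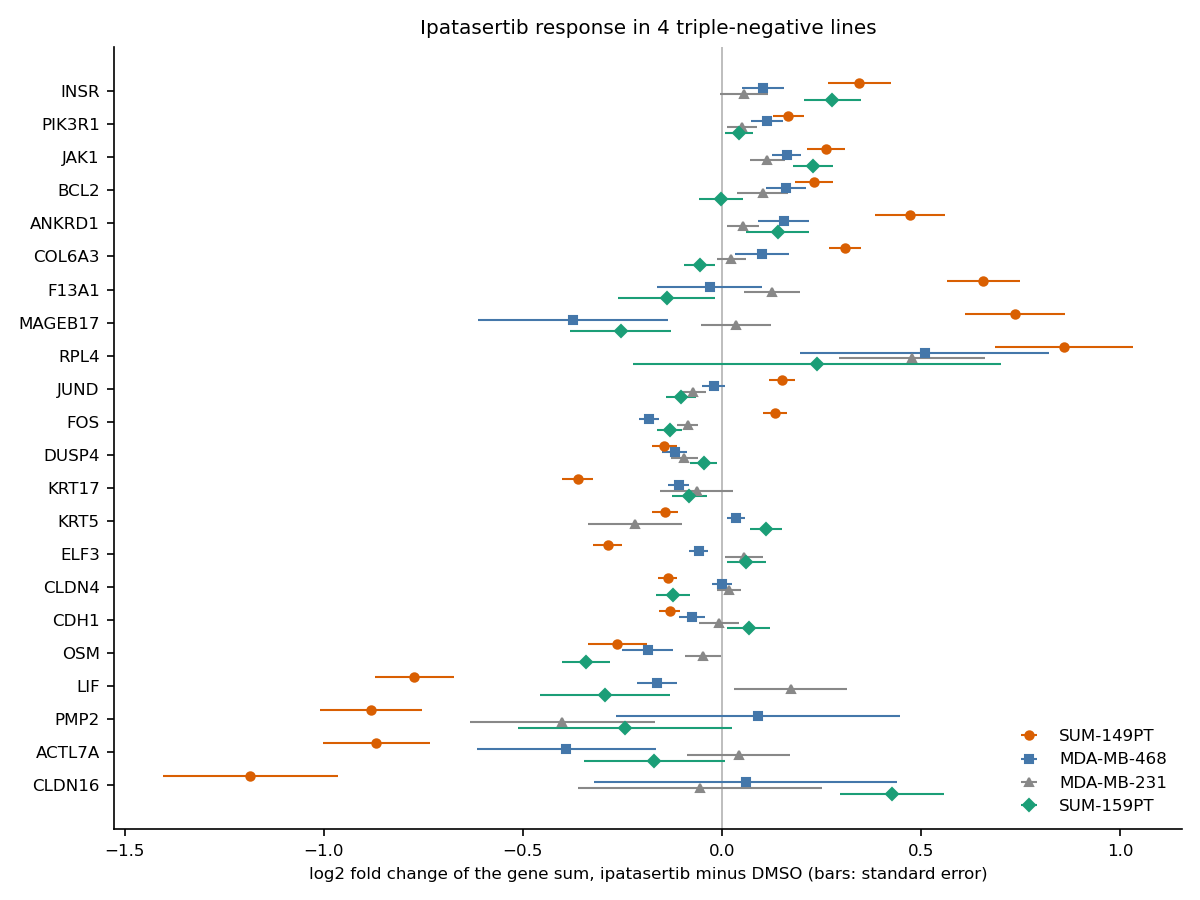
Log2 fold change of the gene sum between ipatasertib and DMSO for 22 genes in 4 lines, with bars for the standard error of the fit. SUM-149PT lies at 0.13 for FOS where MDA-MB-468 lies at -0.18 and SUM-159PT at -0.13, and it lies lowest of the 4 for LIF, KRT17 and ELF3.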

How the data were processed

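The authors' deposited table holds a raw count per peak for 78 libraries. Peaks were called with MACS2 and counted with featureCounts on hg38, per the submitters' processing notes, with aligner and versions not given in the sources used here. Of 84 labelled samples 6 HCC1806 samples are not analysed here. Counts were fitted with edgeR 4.0.16 (R 4.3.3, robust quasi-likelihood, TMM scaling, minimum count 10) over the 12 SUM-149PT libraries, and p-values adjusted by Benjamini-Hochberg had to be under 0.05. DESeq2 1.42.0, other scalings, filters and gene windows, and each library left out in turn were alternatives. Genes were named as the 12 largest rises and falls past the threshold (mean of at least 2 log2 CPM, for genes relative to the total of gene sums, and groups not overlapping), up to 4 members of each of 21 lists and a fixed panel, some of which is not reported here. Peaks were named as the 6 largest rises and falls and the largest in promoters and exons. The mean in both rules is over all 12 SUM-149PT libraries. The comparison, lists and rules were chosen with earlier results of these data known. On simulated counts for ipatasertib against DMSO, the gene step (21777 genes) recovered 74 of 100 changes of 0.5 log2 and 94 of 100 of 1, with 10 false calls, and the peak step (219875 peaks) 27 and 51 of 100, with 7. Group labels come from the sample titles. The p-values cover no more than counting error.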

Additional observations from a re-analysis of the deposited data

Results flagged for a closer look

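Values here are the SUM-149PT response to ipatasertib minus that of another line (log2, edgeR, adjusted p under 0.05 for the difference itself). Among lineage genes the response of ELF3 was lower than in MDA-MB-231 (-0.34), MDA-MB-468 (-0.23) and SUM-159PT (-0.35). KRT17 differed from MDA-MB-468 (-0.25) and SUM-159PT (-0.28), as did KRT5 (-0.18 and -0.25), and CLDN4 from MDA-MB-231 (-0.15) and MDA-MB-468 (-0.14). COL6A3 was higher against MDA-MB-231 (0.29) and SUM-159PT (0.37), and NT5E against MDA-MB-468 (0.25). CDH5 was lower against MDA-MB-468 (-0.29) and SUM-159PT (-0.32).

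Among signalling genes FOS differed from MDA-MB-231 (0.22), MDA-MB-468 (0.32) and SUM-159PT (0.26), and JUND by 0.22, 0.17 and 0.25 in the same order. KLF6 differed from MDA-MB-231 (0.14) and MDA-MB-468 (0.13), where it fell. LIF was lower against MDA-MB-231 (-0.95) and MDA-MB-468 (-0.61), and ANKRD1 higher against MDA-MB-231 (0.42).

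Of the largest gene changes, F13A1 differed from MDA-MB-231 (0.53), MDA-MB-468 (0.69) and SUM-159PT (0.80), and MAGEB17 by 0.70, 1.11 and 0.99. MLF1 differed from MDA-MB-231 (1.22) and SUM-159PT (1.32), KIAA2012 from MDA-MB-468 (-1.16) and SUM-159PT (-0.91), ACTL7A from MDA-MB-231 (-0.91), APCS from SUM-159PT (0.61) and CLDN16 from SUM-159PT (-1.61).

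Of the named peaks, that assigned to ITGB1 differed from MDA-MB-231 (-1.40), MDA-MB-468 (-0.79) and SUM-159PT (-1.30). The LOC105374591 peak differed from MDA-MB-468 (-1.24) and SUM-159PT (-1.49), and the PPM1L peak from the same lines (-0.89 and -1.08). The peaks of GATA3-AS1 (-1.29), LINC01527 (-1.20) and TNFSF15 (-0.69) differed from MDA-MB-468, and those of SLC8A1-AS1 (1.37) and MKLN1 (1.16) from MDA-MB-231.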

How the results depend on the processing

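The number of changed peaks (16109) was 9748 with the trend in accessibility removed, 3343 with DESeq2 and 7368 to 13222 with 1 library left out, lowest without DMSO replicate 3, then 8248 without ipatasertib replicate 2 and 9909 without ipatasertib replicate 3. Changed genes (1089) numbered 179 with DESeq2, 347 with a window of 1 kb, 2400 with one of 50 kb and 520 to 771 with 1 library left out (520 and 534 without ipatasertib replicates 3 and 2, 630 and 679 without DMSO replicates 3 and 2). Between combination and tazemetostat DESeq2 called 2999 peaks and 161 genes, against 15690 and 885. Peaks that differed from MDA-MB-231 numbered 250 with total counts as the scale, against 444. The promoter share difference was 0.32 to 0.93 percentage points with 1 library left out. Of called peaks 47.0% rose with a minimum count of 30 and 83.5% with no filter. With quasi-dispersions held at 1 or more, an alternative chosen after seeing the data, 14932 peaks and 837 genes passed. The cause of these shifts was not tested.

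Same-numbered libraries did not deviate together (correlations of -0.029 to 0.048). A fit with the replicate number as a block called 16043 peaks and 1096 genes, 15620 and 872 on tazemetostat, and 0 and 0 for the difference. Of the 54 named genes that passed, 23 passed with each library left out, and DESeq2 lost 32 of the 49 it gave a value for.

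A sign turned in 21 values of 12 genes. With a window of 50 kb these were SLC37A1 -0.019, CLDN16 0.016, SQLE 0.069, HK1 0.017 and GPNMB 0.015, and with 1 kb TXNIP -0.071, KLF6 -0.015, BMF -0.0055, STAT3 -0.015 and AKT2 -0.0092. STAT3 was also -0.0087 with the trend removed and -0.011 without DMSO replicate 3, ERBB3 was -0.0027 with the trend removed, and GATA3 ranged from -0.032 to 0.0012 and STAT3 from -0.011 to 0.040 with 1 library left out. AKT2 was -0.0057 with total counts, -0.018 with the trend removed, -0.00025 with the block, -0.0055 with a minimum count of 30, and -0.0061, -0.0091 and -0.0087 without ipatasertib replicates 1 and 2 and DMSO replicate 2, and ranged up to 0.027 with 1 library left out. Depth limits weak peaks: 36.0% of those tested were under 0 log2 CPM.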

Other observations

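Further genes held many changed peaks, chosen by rank after their values were seen. Rises gathered at MACROD2 (19 of 170 risen, 7 fallen), the lineage factor NFIB (10 of 98, 4 fallen), GLIS3 (10 of 58, 1 fallen), the cytoskeletal linker MACF1 (10 of 68, 1 fallen) and the adhesion gene ALCAM (9 of 49, 1 fallen). Falls gathered at the calcium channel gene ITPR1 (9 of 40, none risen), the RAF scaffold KSR1 (9 of 44, none risen), the lipase LIPG (9 of 42, none risen), NFATC2 (9 of 77, 3 risen) and CD55 (8 of 32, 1 risen).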
